A study of Homo sapiens with 2 samples.

Results

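The pairs described here join the part of DRAIC whose structure was probed to the parts that were not probed. They were chosen by position alone, as all listed base pairs with a single nucleotide in nts 677 to 1107, and they number 527 of the 3469 pairs in the deposited model (15.2%). Of these, 263 reach over the 5′ edge to nts 1 to 676 and 264 over the 3′ edge to nts 1108 to 1735. In the following, the probed partner of such a pair is called the inner nt, the unprobed partner the outer nt, and the difference of the 2 positions the span. RNA extracted from LNCaP, an established prostate cancer cell line, was refolded for 20 min at 37 °C and then exposed for 10 min either to the SHAPE reagent 5NIA (25 mM in the sample labels, while the study's methods give another concentration) or to DMSO as the control. There were 2 libraries, 1 per condition, and the authors turned them into 1 profile and 1 structure model, so the values below have no replicate error and no test across samples could be made. Read counts are not analysed here, and the depth behind the model is unknown.

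DRAIC is a long noncoding RNA described as tumor suppressive, and the study sought the part of its fold that acts on the NF-κB pathway. SHAPE reagents acylate the 2′-hydroxyl of flexible nucleotides, and in a restrained fold the reactivities make pairing of reactive nts costlier and pairing of unreactive nts cheaper. In a pair that leaves the probed stretch only the inner nt carries such a restraint, and the outer strand is placed by the energy rules alone. A nucleotide pairs with at most 1 partner at a time, so helices that use the same nts compete, and a partition function divides the probability of a nucleotide among them.

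The numbering could be laid on transcript DRAIC-244 of GENCODE release 44, from its nt 31 on, where 3469 of 3469 listed pairs were Watson-Crick or G-U pairs and the sequence had 0 mismatches to GRCh38. On chromosome 15, plus strand, exon 3 (nts 486 to 700) runs from 69563590 to 69563804, exon 4 (nts 701 to 1034) from 69565194 to 69565527, and exon 5 (nts 1035 to 1735) from 69570740 to 69571440. The 5′ edge thus lies within exon 3 and the 3′ edge within exon 5. The amplified stretch extends 22 nts beyond the 5′ edge (nts 655 to 676) and 25 nts beyond the 3′ edge (nts 1108 to 1132). No reactivity is reported for these flanks. They are taken here as the primer sites of the amplicon, which the study does not state.

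A helix was defined as at least 3 nested pairs above a probability of 0.1, with at most 1 unpaired nt on each strand between neighbouring pairs. By this definition 11 helices crossed the 5′ edge and 10 the 3′ edge, and each is named below by its outermost pair. For the 5′ edge the strands of the 669/704 helix, which had the highest summed probability there, are shown with those of 3 helices chosen because they share or compete for strands. They are written 5′ to 3′ as RNA, with the nts paired in that helix in capitals and all other nts in lower case, and the coordinates are those of the printed stretch in GRCh38.
669/704 helix, outer strand, nts 666 to 679, exon 3, chr15:69563770-69563783: ucuGUCCUUGGccc
669/704 helix, inner strand, nts 693 to 707, exon 3 (chr15:69563797-69563804) and exon 4 (chr15:69565194-69565200): uugCUGAGGAaCuug
652/779 helix, outer strand, nts 649 to 666, exon 3, chr15:69563753-69563770: ucuUUCuCCAGGAAAaau
652/779 helix, inner strand, nts 766 to 782, exon 4, chr15:69565259-69565275: gaaUUUCUUGGGAAauu
654/792 helix, outer strand, nts 651 to 661, exon 3, chr15:69563755-69563765: uuuCUCCAgga
654/792 helix, inner strand, nts 785 to 795, exon 4, chr15:69565278-69565288: aagUGGAGuac
404/793 helix, outer strand, nts 401 to 413, exon 2, chr15:69563218-69563230: uacACUCCACcuu
404/793 helix, inner strand, nts 784 to 796, exon 4, chr15:69565277-69565289: gaaGUGGAGUacc

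The strands of the 3 helices with the highest summed probability at the 3′ edge are given in the same way, because the exon 4 to exon 5 pairing described below rests mainly on them. Their inner strands lie in exon 4 and their outer strands in exon 5.
876/1295 helix, inner strand, nts 873 to 889, exon 4, chr15:69565366-69565382: gaaACAACAUCUGGaug
876/1295 helix, outer strand, nts 1281 to 1298, exon 5, chr15:69570986-69571003: gggCCAGAUaGUUGUacc
987/1132 helix, inner strand, nts 984 to 1002, exon 4, chr15:69565477-69565495: uuaUUCAUUUcCUGCUuuu
987/1132 helix, outer strand, nts 1116 to 1135, exon 5, chr15:69570821-69570840: cgcAGCAGAaGuAUGAAcau
907/1202 helix, inner strand, nts 904 to 916, exon 4, chr15:69565397-69565409: caaUGCCUCCaaa
907/1202 helix, outer strand, nts 1192 to 1205, exon 5, chr15:69570897-69570910: auaGGaAGGUAaga

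Across the 5′ edge, 13 of 263 pairs had a modeled probability above 0.5 and 6 were above 0.95. Across the 3′ edge, 29 of 264 pairs were above 0.5 and 0 were above 0.95, the highest being 0.889 for pair 883/1287. Over all 3469 listed pairs, 9.25% were above 0.5 and 1.93% above 0.95. At 0.5 the 5′ edge held a smaller share (4.94%), while the 3′ edge was near the background (10.98%). At 0.95 the 5′ edge was also near the background (2.28%), and its 6 pairs there all belong to the 669/704 helix. Most pairs were weak at both edges, with median probabilities of 0.0296 and 0.0443 against 0.0323 for all listed pairs. The summed probability, which is close to the mean number of such pairs in a molecule of the model, was 26.3 across the 5′ edge and 38.4 across the 3′ edge, compared with 81.4 for pairs wholly within the probed stretch. Of all pairing of the probed nts, 11.6% left over the 5′ edge, 16.9% over the 3′ edge and 71.6% stayed inside. Without replicates no spread can be set beside these differences.

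**Figure D1:**
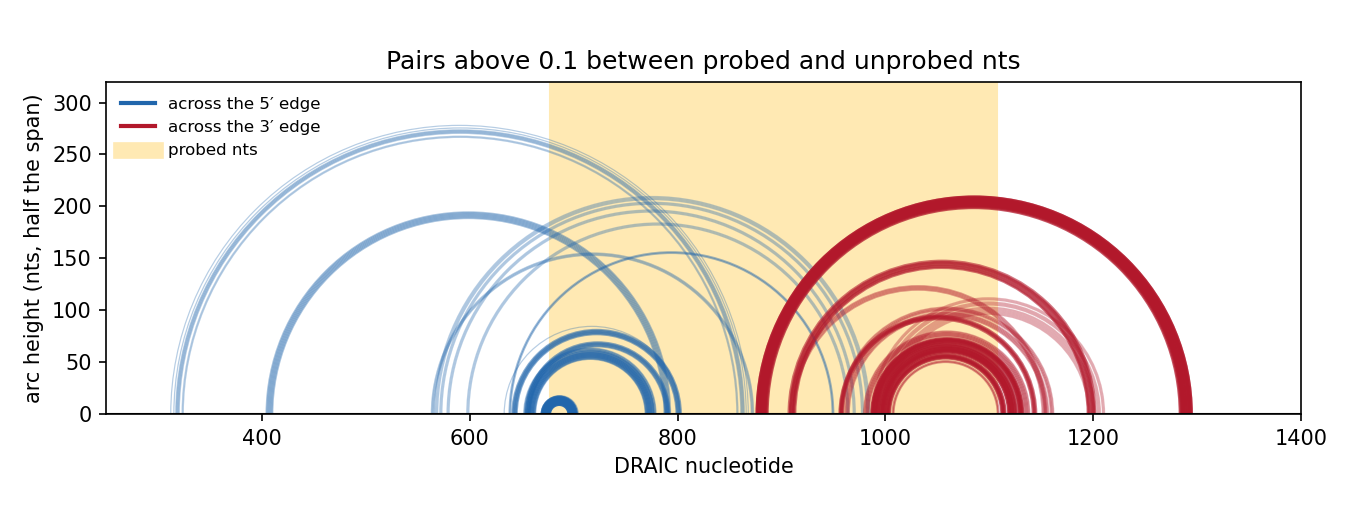
Arcs join the 2 nts of each pair with a probability above 0.1 that crosses the 5′ edge (blue) or the 3′ edge (red) of the probed nts (shaded). The horizontal axis is the nucleotide of DRAIC, arc height grows with the span, and thicker, darker arcs have higher probability. The 669/704 helix is the small dark arc at the 5′ edge, and the 876/1295 helix is the wide dark red arc at the 3′ edge.

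The pairs that crossed the 2 edges differed in how far they reached. At the 5′ edge 27.0% of the summed probability came from spans under 50 nts, held by only 9 pairs. The 669/704 helix, with 8 pairs, gave 7.05 of the 7.12 in this class. Spans of 100 to 199 held 39.4%, spans of 200 to 399 held 22.9% and spans of 400 to 592 held 10.6%. At the 3′ edge spans under 50 held 0.192%, spans of 100 to 199 held 50.1%, spans of 200 to 399 held 23.5% and spans of 400 to 592 held 26.1%. The median span was 280 nts at the 5′ edge and 213 nts at the 3′ edge, but when weighted by probability it was 134 and 196 nts, so the order of the edges turned. Over pairs above 0.5 alone it was 32 and 145 nts. Pairs within the probed stretch had a median span of 17.5 nts, and those wholly outside it 57 nts. The position rule by itself favors long spans, because a longer pair can straddle an edge from more positions. The longer spans of the crossing pairs are therefore not read as a trait of these pairs. The shortest and also most probable pair of the 5′ edge was 676/696 (span 20, probability 0.990), and its longest was 218/798 (span 580, probability 0.00204). At the 3′ edge the shortest was 1104/1111 (span 7, 0.00891) and the longest 801/1393 (span 592, 0.0196), and no pair in the model has a longer span.

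**Figure D2:**
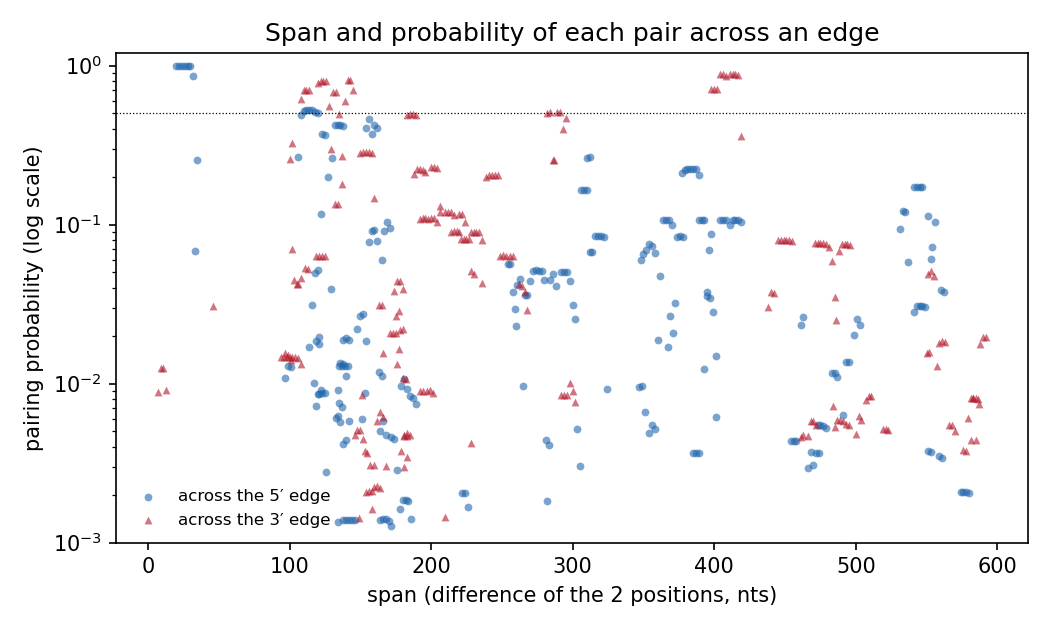
Each point is 1 pair across the 5′ edge (blue circles, 263) or the 3′ edge (red triangles, 264), by its span in nts and its modeled probability on a log scale. The dotted line marks 0.5. Above it lie a 5′ cluster at spans of 20 to 32, clusters of both edges between 100 and 150, and 2 further 3′ clusters at longer spans, the last near 400 nts.

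The most probable structure to cross either edge was the 669/704 helix, with 8 pairs that straddle the 5′ end of the probed stretch. Its pairs 671/701, 672/700, 673/699, 674/698, 675/697 and 676/696 had probabilities of 0.989, 0.990, 0.989, 0.989, 0.989 and 0.990. Pair 670/702 had 0.860 and the outermost pair 669/704 had 0.255. The helix has 4 G-C, 2 A-U and 2 G-U pairs, and 19 nts lie between its strands. It had little competition. Partners outside the helix took 0.952% of the pairing of its inner strand and 1.41% of that of its outer strand, and none of them exceeded 0.1. Its inner strand spans the splice junction after nt 700, so that pairs 669/704, 670/702 and 671/701 use exon 4a, the 30-nt 5′ part of exon 4 that is subject to alternative splicing, and the other 5 pairs lie wholly in exon 3.

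Further from the edge, the 5′ pairs formed a set of helices that share strands. The 652/779 helix had 11 pairs with probabilities from 0.2005 to 0.523 and a median of 0.502. Its outer strand overlaps that of the 654/792 helix, which had 5 pairs from 0.260 to 0.422 (median 0.421). Over the 4 nts paired in both (654, 656, 657 and 658), the mean probability was 0.478 for the 652/779 helix and 0.381 for the 654/792 helix. Together these 2 pairings made up 98.1% of the listed pairing of the 4 nts, so in the model these nts are divided between 2 strands of exon 4. The 652/779 helix was the more probable at 3 of the 4. The inner strand of the 654/792 helix is shared in turn with the 404/793 helix, a pairing with exon 2 over a span of 389 nts with 7 pairs from 0.204 to 0.223. On the 5 shared nts, 788 to 792, the 654/792 helix had a mean of 0.389 and the 404/793 helix 0.223, which together held 80.0% of the listed pairing.

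The outer strands of the 654/792 and 404/793 helices hold the same 5 nts, CUCCA, at nts 654 to 658 and 405 to 409. This 5-mer occurs 5 times in the 1735 nts (0.289% of 1731 windows), searched on the RNA strand only. The other occurrences, at nts 536 to 540, 910 to 914 and 1080 to 1084, have 0 listed pairs with nts 788 to 792. The 404/793 helix also competes on its outer strand, with a helix of nts 189 to 202 and nts 398 to 411 on the unprobed side. Over the 6 shared nts the means were 0.218 and 0.187, and set against each other, each was the more probable at 3 of them. Together they held 57.1% of the listed pairing of these nts. A local hairpin on the unprobed side, singled out after its values were seen, also used nts 405 to 409. Pair 405/417 had 0.321, pairs 406/416, 407/415 and 408/414 each had 0.326, and pair 409/413 had 0.214. It was more probable than the 404/793 helix at nts 405 to 408, but not at nt 409 (0.221 for pair 409/788). Competing partners took 65.1% of the pairing of the inner strand of the 404/793 helix and 68.6% of that of its outer strand.

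The inner strand of the 652/779 helix competed with a local hairpin of nts 762 to 767 and 773 to 778, which lies wholly in the probed stretch and had 6 pairs with a median of 0.335. The 652/779 helix was the more probable at 6 of the 6 shared nts, with a mean of 0.467 against 0.332. The last helix with a high summed probability at this edge was 641/803, which pairs nts 641 to 645 with nts 799 to 803. Its 5 pairs ran from 0.370 to 0.459. The competitor with the highest summed probability was a helix of nts 548 to 562 with nts 629 to 643 on the unprobed side (13 pairs, median 0.207). That helix shares only nts 641 to 643, where its mean was 0.114 against 0.399 for the 641/803 helix. Next came pairs of nts 802 and 803 with nts 812 and 813 (median 0.130), against a mean of 0.413 for the 641/803 helix at these nts. The 641/803 helix can form together with either the 652/779 or the 654/792 helix, both of which lie inside it, and with the 669/704 helix innermost. It cannot be nested with the 404/793 helix, whose strands cross it. The remaining 6 helices of the 5′ edge had medians from 0.107 to 0.172.

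Outer nts were concentrated close to the 5′ edge. The 22 nts of the primer site, 655 to 676, carried 49.3% of the summed probability of this edge and 13 of the 13 pairs above 0.5. By exon, 86.4% lay in exon 3, 12.9% in exon 2 and 0.631% in exon 1, and 81.2% of the probability joined nts of different exons. The placement of the edge in exon 3, with most probed nts in exon 4, favors such pairs. Of the 676 nts 5′ of the probed stretch, 170 had a listed pair across the edge, the most 5′ being nt 125, but only 16 had a summed crossing probability above 0.5. For 126 of the 170 the most probable partner was not across the edge, and 27.1% of the pairing of the 170 nts went into the probed stretch.

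**Figure D3:**
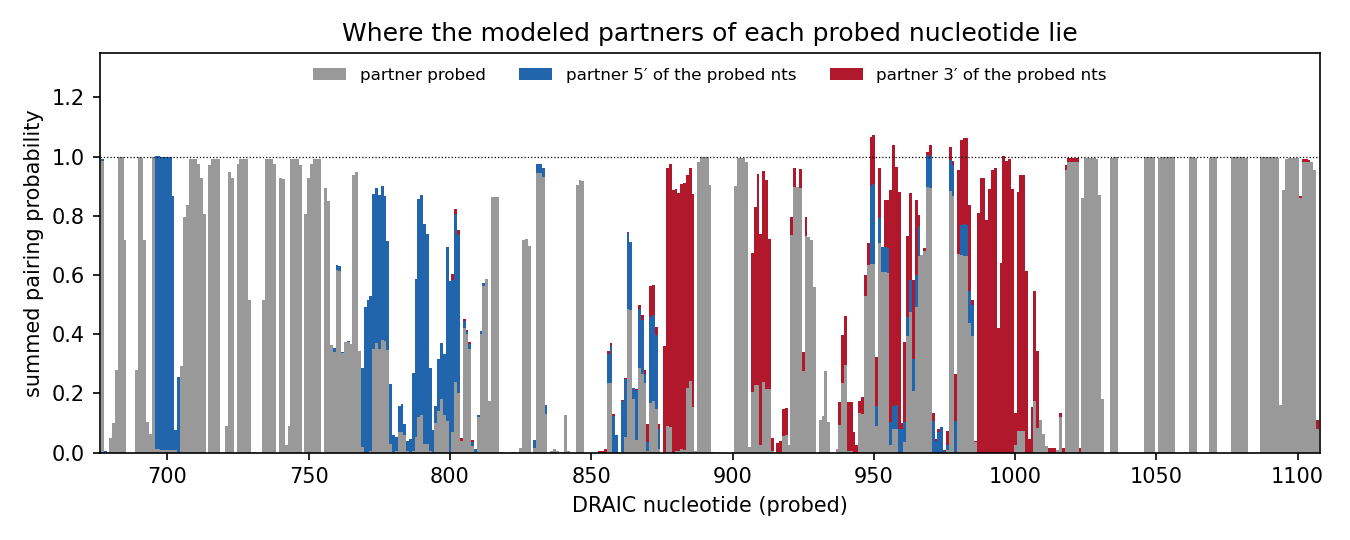
Bars give the summed pairing probability of each probed nucleotide, split by where its partners lie (gray, within the probed nts; blue, 5′ of them; red, 3′ of them). The dotted line marks 1, which a few sums exceed. The stretches where blue exceeds the other colors include nts 696 to 702, 770 to 778, 788 to 792 and 799 to 803. Those where red does include nts 876 to 886, 907 to 913, 956 to 959, 987 to 999 and 1001 to 1004. Nts 1027 to 1076 have no partner outside.

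At the 3′ edge the helix with the highest summed probability was 876/1295, with 11 pairs that join exon 4 to exon 5 over 397 nts between the strands. The outermost pair 876/1295 had 0.360. Pairs 877/1294, 878/1293, 879/1292, 880/1291 and 881/1289 had 0.871, 0.886, 0.886, 0.886 and 0.864, and pairs 882/1288 and 883/1287 had 0.888 and 0.889. The 3 innermost pairs, 884/1286, 885/1285 and 886/1284, were lower, at 0.711, 0.711 and 0.709. The lower values coincide with a local competitor in the probed stretch, nts 871 to 873 with nts 884 to 886, whose 3 pairs had a median of 0.149. On the outer strand the rival was a long helix of nts 1286 to 1313 with nts 1402 to 1429, wholly in unprobed exon 5, which had 24 pairs and a median of 0.670. It uses 7 nts of the outer strand, where the 876/1295 helix had a mean of 0.784 and the rival 0.162. The listed probabilities of these 7 nts summed to a mean of 1.07, and the highest sum at a nucleotide in any crossing pair, 1.18 at nt 1287, was here. In all, and counting the nts of this strand, sums above 1 occurred at 11 inner and 4 outer nts of the 5′ edge. At the 3′ edge they occurred at 10 inner and 9 outer nts. Inner nts with pairs over both edges are counted at each edge. At all these nts the values can only be read as approximate shares.

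The 987/1132 and 1001/1115 helices follow each other along nts 987 to 1004 and use the 3′ primer site as outer strand. The 987/1132 helix had 12 pairs with a median of 0.744. Its pairs 988/1131 and 989/1130 had 0.808 and 0.810, and pairs 996/1122, 997/1121 and 998/1120 each had 0.799. In the middle of the helix the values fell to 0.269 for pair 991/1128 and 0.135 for pair 992/1126. There nts 990 to 994 also paired with nts 1123 to 1127 in a shifted way, with 0.499 for pair 991/1126 and 0.681 for pair 992/1125. The latter stacks directly on pair 993/1124 of the 987/1132 helix, which had 0.687. Pairs 991/1126 and 992/1125 are counted apart from that helix because at most 1 unpaired nt was allowed between neighbouring pairs. The low values in the middle thus depend on the helix definition. The 1001/1115 helix lies 1 nt further on the inner strand and 3 nts on the outer strand, and its pairs 1001/1115, 1002/1114, 1003/1113 and 1004/1112 had 0.698, 0.703, 0.702 and 0.614. Another pairing of the same inner nts, 987 to 1003 with nts 1195 to 1211, had 15 pairs between 0.104 and 0.121. On the 10 nts it shares with the 987/1132 helix, the latter was more probable at 10 of 10, with a mean of 0.659 against 0.114.

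The 907/1202 helix was more divided. Its 7 pairs had a median of 0.507, with 0.508 for pairs 909/1200 and 910/1199, 0.507 for 912/1196 and 913/1195, and 0.254 for pair 911/1198. Nt 911 was divided between neighbouring partners, since pair 911/1197 had 0.253. Competing partners took 45.5% of the pairing of its inner strand and 49.7% of that of its outer strand. The outer strand was shared with nts 987 to 1003 in the pairing given above (mean 0.110 over 7 nts). It was also shared with several strands of unprobed exon 5. Among these, nts 1199 to 1202 paired with nts 1692 to 1695 at 0.126 to 0.127, and nts 1195 and 1196 with nts 1258 and 1257 at 0.124. The inner strand was shared with nts 863 to 869 in the probed stretch (median 0.182) and with nts 1151 to 1155, which paired with nts 908 to 912 at 0.2004 to 0.204. The latter helix and the pairs within exon 5 were singled out after their values were seen. The 956/1145 helix had 4 pairs from 0.489 to 0.494. The same 4 inner nts paired with nts 1159 to 1162 in a helix of nts 956 to 965 with nts 1153 to 1162, which had a median of 0.223, and over the 4 shared nts the means were 0.492 and 0.204. On the outer strand nts 1144 and 1145 also paired within exon 5, in a helix of nts 1144 to 1146 and nts 1152 to 1154 (median 0.147).

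The 5 most prominent helices of the 3′ edge all lie inside each other and share no nt, so they can form in the same molecule. From the outside in, the order is 876/1295, 907/1202, 956/1145, 987/1132 and 1001/1115. Successive helices are separated by 20, 42, 27 and 1 nts on the inner side and by 81, 49, 9 and 3 nts on the outer side. The innermost, 1001/1115, encloses 28 pairs above 0.5, and all 28 have both nts in the probed stretch. At the 5′ edge the 5 most prominent helices fall into 3 alternative nests of 3 helices each, all with the 669/704 helix innermost. No prominent helix of 1 edge shares a nt with or crosses a prominent helix of the other.

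At the 3′ edge the 25 nts of the primer site carried 35.6% of the summed probability and 15 of the 29 pairs above 0.5. The position rule puts all outer nts in exon 5, and most probed nts lie in exon 4. Inner nts in exon 4 held 99.8% of the probability, so nearly all pairing over this edge also bridges the exon 4 to exon 5 junction. The placement of the edge favors this share, which is not read as a trait of these pairs. Of the 628 nts 3′ of the probed stretch, 158 had a crossing pair, the most 3′ being nt 1457, and 34 had a summed crossing probability above 0.5. The most probable partner was not across the edge for 84 of the 158. Of the pairing of these 158 nts 41.3% entered the probed stretch, compared with 27.1% for the 170 nts at the 5′ edge. Over all unprobed nts of each side the values were 11.7% and 6.90%.

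**Figure D4:**
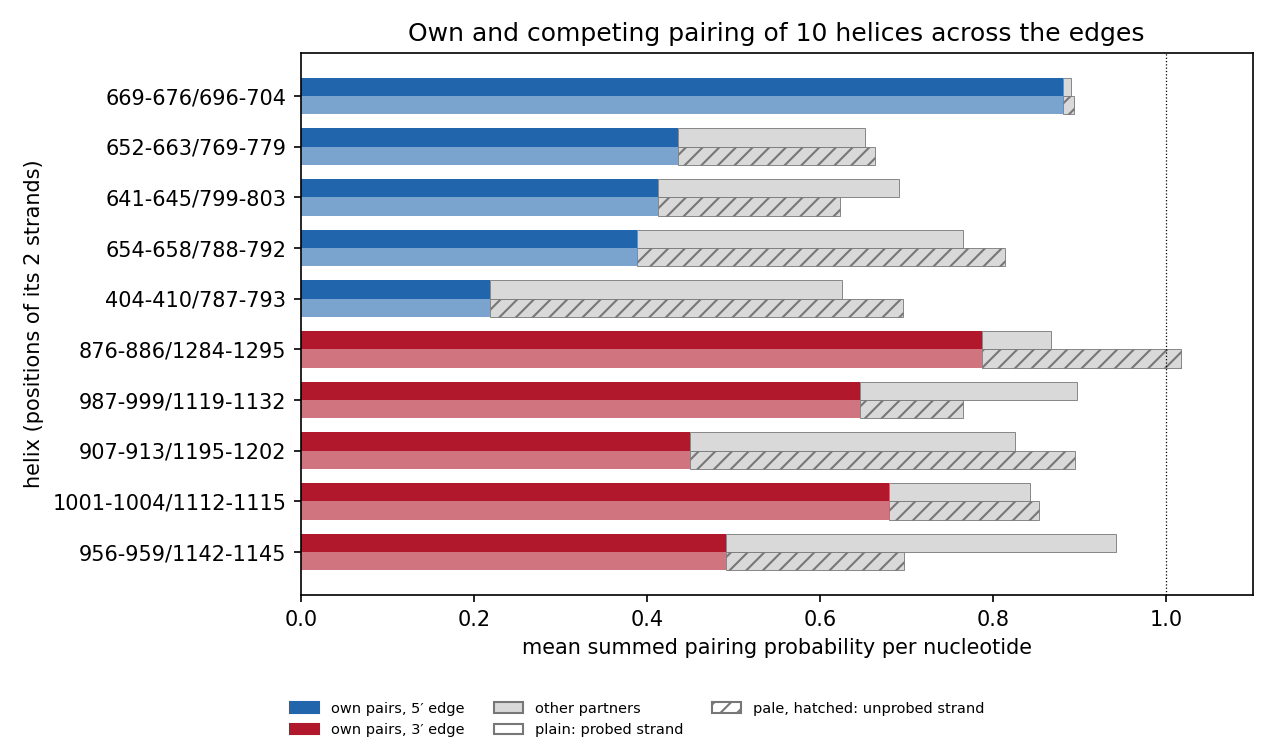
For the 5 helices with the highest summed probability at each edge, bars give the mean summed probability per nucleotide in the helix itself (blue, 5′ edge; red, 3′ edge) and with all other listed partners (gray), for the probed strand (upper, plain) and the unprobed strand (lower, hatched). The helices are labeled by the positions of both strands, and the dotted line marks 1. The 669/704 helix has almost no gray, and the 404/793 helix more gray than blue.

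Seen from the probed side, 58 nts had their most probable partner across the 5′ edge and 65 across the 3′ edge, but for only 13 and 29 of them was that pair above 0.5. The inner nts of the 5′ edge ran from 677 to 985 and those of the 3′ edge from 801 to 1107, and 54 nts had listed pairs over both edges. In windows of 50 nts the 5′ share was highest at nts 777 to 826 (50.2% of pairing) and the 3′ share at nts 977 to 1026 (53.8%) and nts 877 to 926 (44.7%). Nts 1027 to 1076 had 100% of their pairing within the probed stretch. By number of partners the nts of both edges were alike, with a median of 5 listed partners for inner and 5 for outer nts at the 5′ edge, and 4 and 6 at the 3′ edge. The top partner held a median of 63.5% and 65.4% of a nucleotide's pairing at the 5′ edge and 71.4% and 66.9% at the 3′ edge.

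The base pairs used were much like those of the rest of the model. G-C pairs made up 45.2% of the 5′ and 42.0% of the 3′ pairs, against 46.2% of all listed pairs, and G-U pairs 10.6% and 13.3% against 13.2%. By summed probability A-U pairs held 46.5% at the 3′ edge and 39.5% at the 5′ edge. The G + C content was 49.4% in the 5′ unprobed stretch, 40.8% in the probed and 43.6% in the 3′ unprobed one. Helices of the same definition within the probed stretch had a median probability above 0.5 in 14 of 21 cases (66.7%), compared with 4 of 10 at the 3′ edge, 2 of 11 at the 5′ edge and 29 of 105 (27.6%) wholly outside.

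The landmarks of the functional region differed in how much of their pairing left the probed stretch. The A + B strands, nts 705 to 722 and 741 to 758, which form the hairpin at the center of the study, had 0 listed pairs across either edge, and so did the whole ABC region, nts 705 to 758. The list goes down to a probability of 0.00102, and pairs below that are not seen. In the fold without restraints described below, 3.38% of their pairing crossed an edge. Exon 4a, nts 701 to 730, had 4 crossing pairs, 669/704 (0.255), 670/702 (0.860), 670/703 (0.0681) and 671/701 (0.989). They made up 10.8% of its pairing and all lie in its first 4 nts, just 5′ of the A + B hairpin. The functional fragment, nts 705 to 950, had 321 crossing pairs, 212 over the 5′ and 109 over the 3′ edge. They held 27.5% of its pairing, 14.1% over the 5′ edge and 13.4% over the 3′ edge, and 20 of them were above 0.5. These partners are outside nts 705 to 950, as is the outer strand of the 876/1295 helix, which supplied the most probable of them.

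To see how the crossing pairs stand in a fold that uses no SHAPE data, the same sequence was folded with ViennaRNA. The 669/704 and 652/779 helices changed by less than 0.05 in median probability, from 0.989 to 0.983 and from 0.502 to 0.542. The other 8 prominent helices had lower medians, 0.0312 for 641/803, 0.312 for 654/792, 0.0213 for 404/793, 0.513 for 876/1295, 0.126 for 987/1132, 0.0505 for 907/1202 and 0.0157 for 956/1145, and the pairs of the 1001/1115 helix were all under 0.001. These helices were picked for their probability in the deposited model, and software and restraints changed together, so their parts cannot be told apart. All 21 helices were likewise defined by pairs above 0.1 in the deposited model, and that choice favors lower values in any other fold. Of the 21, 18 were lower and 3 higher without restraints, which by itself says nothing about the restraints. Among the higher ones, nts 908 to 912 with nts 1151 to 1155 went from 0.204 to 0.452.

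The fold without restraints had its own crossing helices, which were picked for their probability there. At the 5′ edge the first by summed probability joined nts 623 to 640 to nts 796 to 812 (15 pairs, median 0.585), and in the deposited model the same pairs had a median of 0.0117. At the 3′ edge the first joined nts 846 to 858 to nts 1343 to 1355 (12 pairs, median 0.642 without restraints and 0.00267 in the deposited model). The next ones used the 3′ primer site with other inner nts. Nts 1117 to 1125 paired with nts 1015 to 1023 (median 0.729 without restraints and 0.0147 deposited), and nts 1109 to 1115 with nts 1081 to 1087 (median 0.913 without restraints, and 0 of 7 pairs listed in the deposited model). The summed probability across the edges was 35.2 and 51.3 without restraints, against 26.3 and 38.4.

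**Figure D5:**
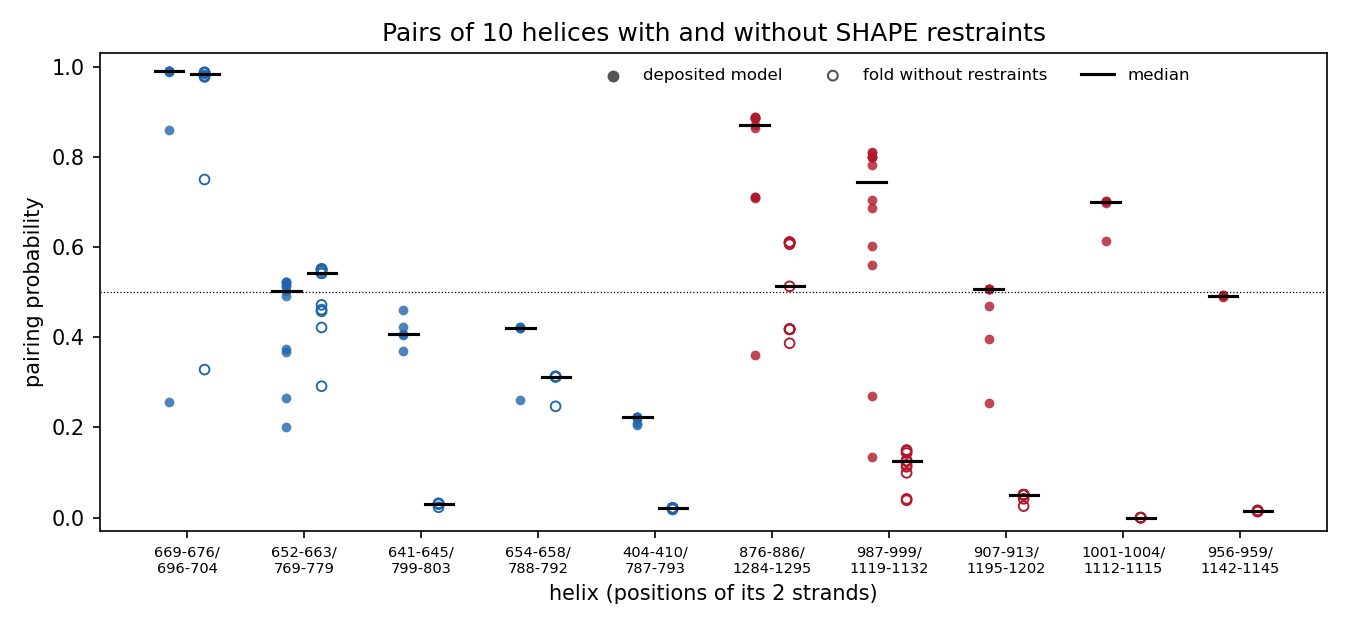
Points are the pairs of the 5 prominent helices of the 5′ edge (blue) and of the 3′ edge (red), with their probability in the deposited model (filled) and in the fold without restraints (open). Black bars are medians and the dotted line marks 0.5. The medians of the 669/704 and 652/779 helices differ by less than 0.05, and those of the other 8 are lower without restraints.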

How the data were processed

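Mutations in the 5NIA and DMSO libraries (1 each) were counted by the authors with ShapeMapper2, and SuperFold was run with the resulting profile as restraints. The versions and settings are not given in the sources used here. The authors deposited, for each listed pair, the negative log10 of its modeled pairing probability, in a single column made from both libraries. Here each was converted to a probability, and unlisted pairs were taken as 0. The edges of the probed nts and the members were fixed by position. The helix definition, the landmarks and the rule for what is named were chosen with earlier results of these data known. By that rule helices with a median above 0.5 and the 5 highest by summed probability at each edge are named. Of the competitors of each, the 2 with the highest summed probability are named, whether or not most of their pairs share a nt with the helix. Competitors were listed pairs that share a nt with a helix. Landmarks were located by matching the study's oligonucleotide and insert sequences. For a fold without restraints, pair probabilities were computed with ViennaRNA 2.7.2 (37 °C, spans up to 592 nts), and pairs under 0.001 were left out. The helix finder was tested on simulated data without helices shifted against each other by a few nts, so that case was not tested. Scripts ran under Python 3.11.15 with numpy 2.4.6, and plots were drawn with matplotlib 3.10.9. Depth is unknown and limits the precision of the restraints to an extent not examined. With no replicates, a value counted as unmoved when it changed by less than 0.05 (probability), 5 points (percentage) or 1.5 times (others).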

Additional observations from a re-analysis of the deposited data

How the results depend on the processing

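No paired analysis was possible because the deposited model holds no column per library. For the edges and regions, 62 alternatives to 19 results were computed, of which 33 stayed within the margins and 29 moved. With edges at the ends of the amplified stretch, shares were taken of the pairing of all nts in that stretch. The 5′ edge then had 0 pairs above 0.5, a summed probability of 13.4 and a share of 5.22%. The 3′ edge had 14 pairs above 0.5 and a share of 10.1%. At thresholds of 0.25, 0.75 and 0.95 the counts of pairs were 30, 7 and 6 at the 5′ edge and 48, 13 and 0 at the 3′ edge. The median span of the 5′ edge was 134 nts weighted by probability and 32 nts over pairs above 0.5. The number of helices at the 5′ edge was 5 at a pair threshold of 0.2 and 2 at 0.5. At the 3′ edge it was 18 at 0.05, 4 at 0.5 and 16 with no unpaired nts allowed. Probed nts with a summed crossing probability above 0.5 numbered 23 and 36. Over all outer nts, 6.90% and 11.7% of pairing entered the probed stretch. The share for the functional fragment was 21.3% over pairs above 0.5. Without restraints there were 548 and 684 listed pairs, 25 pairs above 0.5 at the 5′ edge and 16 helices at the 3′ edge, and 15.9% of exon 4a and 40.3% of fragment pairing crossed. For the 10 prominent helices, 40 alternatives gave 28 moved values. The causes were not tested.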
